A study of Homo sapiens with 47 samples.

Results

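Among 47 single HEK293 cells of 1 run, the 12 cells with the largest share of ID2 transcripts, called ID2-high below, were set against the 12 cells with the smallest share, called ID2-low. The remaining 23 cells are called middle cells. HEK293 is a much-used immortalized line from human embryonic kidney. The labels name neither a treatment nor a genotype, and all 47 cells were grown in DMEM with glutamine and 10% fetal calf serum. Each cell was lysed in its own chamber of a Fluidigm C1 circuit together with ERCC spike-ins, synthetic RNAs added in equal amount to every cell. Oligo-dT-primed cDNA was tagged with unique molecular identifiers (UMIs), which mark the original cDNA molecules, and its 5′ ends were sequenced. Cells are named by the number in their labels. A gene's level in a cell is given in CPM, its UMIs per 1000000 endogenous UMIs, with the spike-ins left out of the total.

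The cells were chosen by their ID2 UMIs over all endogenous UMIs, so the ID2 values below describe the choice and are no result. The labels name 1 line and 1 run and no separate cultures, so the cells are not replicates of a condition, and each set of 12 cells is 1 sample. No p-value is therefore given for any difference between the sets. An SD is the spread over single cells. An interval in brackets is a 95% exact binomial interval of the ratio of summed UMIs and covers counting error only.

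ID proteins (ID1 to ID4) are helix-loop-helix proteins without a basic DNA-binding region. They bind E proteins and keep them from DNA, and their genes are well-known targets of BMP signalling through SMAD factors. HES1 is a basic helix-loop-helix repressor induced by Notch signalling that also represses its own promoter through N-boxes. SOX4 is an HMG-box transcription factor of progenitor cells.

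The promoters of 3 of these genes are shown because ID2 chose the cells, ID1 is, besides ID2, the ID gene with the largest ratio of summed UMIs between the sets, and HES1 is the one gene of the group that passed both the abundance filter and the fold used below. Each is the 250 bases before the RefSeq transcript start, read on the plus strand of GRCh38.p14. Capitals mark the N-box, spelled CACNAG, and the SMAD box, spelled GTCT, each on either strand. The windows are chr2:8681806-8682055 for ID2, chr20:31605039-31605288 for ID1 and chr3:194135898-194136147 for HES1.
ID2: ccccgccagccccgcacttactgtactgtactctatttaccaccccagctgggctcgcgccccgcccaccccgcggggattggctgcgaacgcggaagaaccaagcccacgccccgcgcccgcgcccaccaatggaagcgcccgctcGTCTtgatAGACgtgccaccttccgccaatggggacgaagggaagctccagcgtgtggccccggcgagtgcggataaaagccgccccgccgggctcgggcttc
ID1: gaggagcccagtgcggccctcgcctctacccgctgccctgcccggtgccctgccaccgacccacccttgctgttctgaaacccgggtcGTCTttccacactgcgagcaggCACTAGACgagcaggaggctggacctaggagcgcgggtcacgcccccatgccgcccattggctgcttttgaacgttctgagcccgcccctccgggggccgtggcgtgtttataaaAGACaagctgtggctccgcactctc
HES1: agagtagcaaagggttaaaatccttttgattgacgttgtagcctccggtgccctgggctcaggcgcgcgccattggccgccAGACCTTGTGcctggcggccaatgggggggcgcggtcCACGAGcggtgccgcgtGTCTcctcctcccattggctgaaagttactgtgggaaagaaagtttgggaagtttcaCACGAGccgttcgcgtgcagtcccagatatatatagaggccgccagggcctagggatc

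The HES1 window held 3 N-boxes, between 58 and 165 bases before the start, and a count of at least 3 was found in 0.911% of 35116 promoter windows of the same length. The ID1 window held 1 N-box, which overlaps a SMAD box, and the ID2, ID3, ID4 and SOX4 windows held 0. At least 1 N-box was present in 32.04% of all promoters. SMAD boxes were common, in 77.5% of promoters: ID2 and HES1 held 2 each and ID1 held 3. E-boxes, spelled CANNTG, occurred in 61.8% of promoters, with 1 in the ID2 window and 0 in those of ID1 and HES1. These matches describe letters in the windows and do not show binding.

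ID2 had 700 UMIs in the 47 cells. Its index of dispersion, the variance over cells relative to that of counting error alone, was 14.5. The ID2-high cells held 63.0% of the ID2 UMIs and the ID2-low cells 3.71%. Cells 38 and 85, at the top of the order, held 91 and 49 ID2 UMIs, together 20.0% of all. The ID2-high cells lay between 251 and 1202 CPM with a median of 438, and averaged 505 ± 275 (SD, n = 12). The ID2-low cells lay between 0 and 69.8 with a median of 35.2, and averaged 35.97 ± 23.6 (SD, n = 12). The set means therefore stood 14.04-fold apart by choice.

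The borders of both sets were narrow. Cell 27, the last ID2-high cell, had 15 ID2 UMIs or 251 CPM, and cell 22, just outside, had 13 UMIs or 248 CPM. On the other side cell 53, the last ID2-low cell, had 5 UMIs or 69.8 CPM, against 5 UMIs or 82.9 CPM in cell 55. The 95% Poisson intervals of the neighbours overlapped at both borders. Cells 8 and 14 had no ID2 UMI, which allows up to 84.1 and 88.2 CPM at 3 counts, above the border of the ID2-low set.

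**Figure D1:**
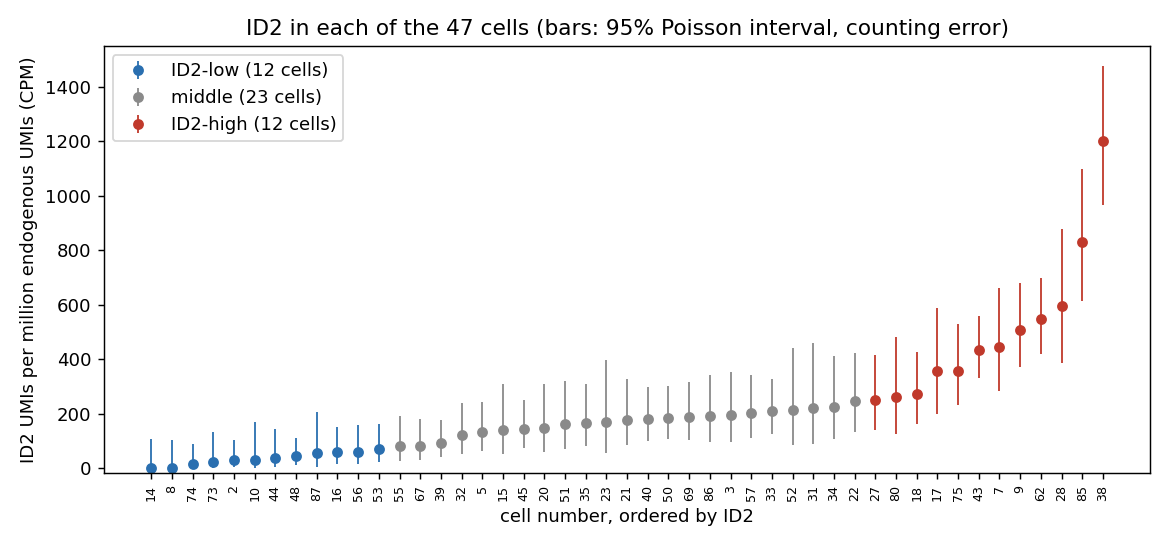
ID2 CPM (vertical axis) in each of the 47 cells, ordered from lowest to highest (horizontal axis, cell number), with 95% Poisson intervals for counting error; blue, grey and red mark ID2-low, middle and ID2-high cells. The values run from 0 in cells 8 and 14 to 1202 in cell 38, without a gap at the borders of the sets.

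Depth differed between the sets and overlapped. ID2-high cells had a median of 64586 endogenous UMIs (38272 to 138647), and ID2-low cells 56782 (32527 to 91317). The median number of endogenous UMIs per spike-in UMI was 18.9 in ID2-high and 15.0 in ID2-low cells, with medians of 3540 and 3445 spike-in UMIs. Cells 43 and 62, with the most endogenous UMIs, were both ID2-high. The share of UMIs from mitochondrially encoded mRNAs was 3.27% ± 0.625 in ID2-high and 3.06% ± 0.667 in ID2-low cells (SD, n = 12 each). The labels give no batch. Of the ID2-high cells, 8 carried numbers up to 48 and 4 above it, against 7 and 5 of the ID2-low cells. Every cell was also thinned to 29325 UMIs to see how far the calls held with fewer counts. CPM already divides by each cell's total, so thinning mainly adds counting error. It cannot show the part of depth in the differences below. Thinned folds were compared singly only for ID1, ID3, ID4, HES1 and SOX4. They are given where thinning moved the fold by over 1.5 times or turned its direction. Of the 63 higher and 94 lower genes called below, 45 and 67 were called again after thinning. Calls lost after thinning are therefore not assigned to depth, and the part of depth was not tested for any gene named below.

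Among the genes shown with ID2, HES1 and ID1 stood higher in ID2-high cells, while ID3 and SOX4 lay at like levels and ID4 was too rare to place. The ID2-high cells had a median HES1 level of 384 CPM, the lowest being cell 7 at 73.9 and the highest cell 17 at 954. The ID2-low cells had a median of 172 CPM, the lowest being cell 8 at 28.03 and the highest cell 87 at 603. The sets overlapped, but HES1 was higher in the ID2-high cell in 78.5% of all pairs of an ID2-high and an ID2-low cell. Its mean was 419 ± 237 against 220 ± 157 (SD, n = 12 each), a 1.90-fold difference. The 358 and 146 HES1 UMIs gave a ratio of 1.89 [1.55 to 2.30]. With any 1 cell left out the fold lay between 1.68 (without cell 17) and 2.26 (without cell 87). With 16 cells in each set it was 1.41, below the 1.5-fold used here to call a gene. The middle cells averaged 415 ± 264 (SD, n = 23), close to the ID2-high cells, and the ID2-low cells had the lowest mean of the 3 groups. Within the middle cells HES1 and ID2 had a Spearman's rho of -0.23, the opposite direction.

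ID1 had a mean of 4.72 UMIs per cell, just below the filter used for the comparison across genes. Its median was 72.2 CPM in ID2-high cells, where cell 18 was lowest (14.4) and cell 43 highest (216). In ID2-low cells the median was 51.1 CPM, with cell 10 at 0 and cell 14 highest at 88.2. The ID2-high cells 7, 9, 43, 80 and 85 lay above the highest ID2-low cell, and the other ID2-high cells lay within the ID2-low range. Cell 38, with the most ID2, had 39.6 CPM. The means were 92.1 ± 68.7 and 49.2 ± 26.4 (SD, n = 12 each), a 1.87-fold difference, and ID1 was higher in 65.3% of pairs. Its 86 and 31 UMIs gave a ratio of 2.13 [1.40 to 3.33], with 30 of the 86 in cell 43. Without cell 43 the fold was 1.64, its lowest value with 1 cell left out. Middle cells averaged 76.1 ± 50.02 (SD, n = 23), between the sets, and rho with ID2 among them was 0.30.

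ID3 had nearly equal levels in both sets, and its summed UMIs gave a ratio of 1.13 [0.959 to 1.34]. Its means were 391.9 ± 260 in ID2-high and 381 ± 255 in ID2-low cells (SD, n = 12 each), a 1.03-fold difference, with a median of 325 against 351. Leaving out cell 62, the ID2-high cell with the highest ID3 (867), turned the fold to 0.916, and leaving out the ID2-low cell 44 (953) raised it to 1.19. ID4 had only 18 and 11 UMIs in the sets. Its 1.54-fold difference rested on cell 7, which had 129 CPM: without it the fold was 0.964, and after thinning it was 2.33. The ratio of summed ID4 UMIs had an interval of [0.563 to 2.95], so a difference in either direction was not detectable at this depth.

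SOX4 averaged 417 ± 237 in ID2-high and 384 ± 190 in ID2-low cells (SD, n = 12 each), with medians of 424 and 402. It was higher in the ID2-high cell in 50% of pairs. The sets overlapped widely, from 83.8 to 1022 CPM in ID2-high and from 84.1 to 714 in ID2-low cells. The 1.09-fold difference turned to 0.944 without cell 18, the highest ID2-high cell, and to 0.972 after thinning. The ratio of summed UMIs was 1.06 [0.905 to 1.25], and rho with ID2 in the middle cells was -0.35.

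**Figure D2:**
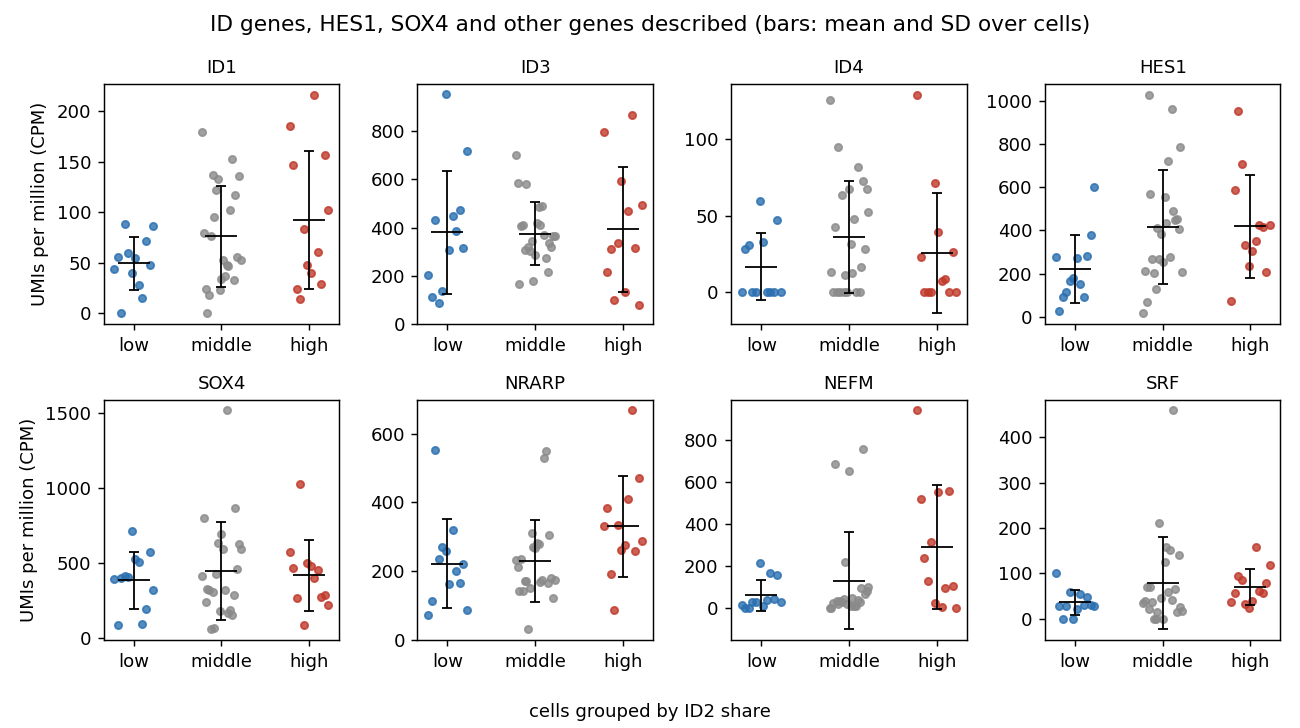
CPM (vertical axes, linear) of 8 genes in ID2-low (blue), middle (grey) and ID2-high (red) cells; each point is a cell and black bars give the mean and SD. HES1 means were 419 in ID2-high, 415 in middle and 220 in ID2-low cells, and the points of the sets overlap in every panel.

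Across all genes with a mean of at least 5 UMIs per cell, 1829 with ID2 left out, 63 genes were at least 1.5-fold higher in ID2-high cells and 94 at least 1.5-fold lower, 3.44% and 5.14% of the genes. The median log2 fold over all of them was -0.01. The spike-ins give the size of differences in RNAs added equally to all cells: 2 of 26 that passed the same filter were at least 1.5-fold higher, 7.69%, and 0 lower, on shares of the spike-in UMIs. Their folds ran from 0.744 to 1.57. In both directions together 157 genes were past 1.5-fold, or 8.58%, near the share of the spike-ins. No gene had sets that did not overlap (0 of 1829, or 0%).

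Large folds belonged to scarce transcripts. Of the 877 genes with a mean of 5 to 10 UMIs per cell 14.6% were past 1.5-fold, and of the 493 genes with 10 to 20 UMIs 5.27%. Of the 274 genes with 20 to 50 UMIs it was 1.09%, and of the 185 genes with 50 or more 0%. The spike-ins followed the same course: 1 of 4, 1 of 5, 0 of 7 and 0 of 10 were past the fold. HES1, at 23.5 UMIs per cell, was 1 of the 2 higher genes in the band of 20 to 50.

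**Figure D3:**
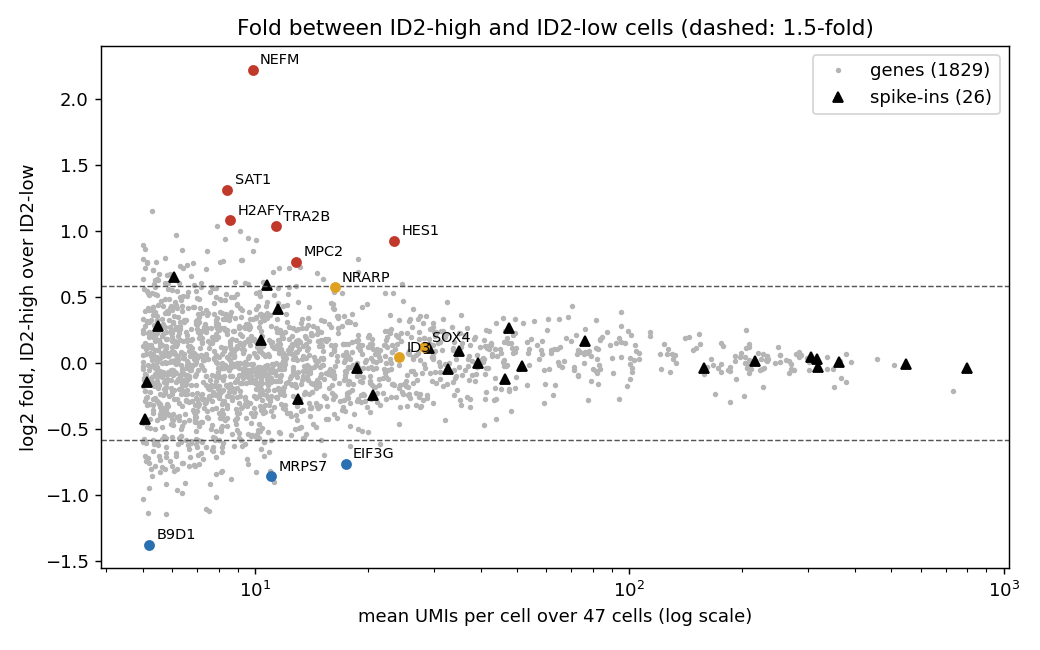
Log2 fold of ID2-high over ID2-low cells (vertical axis) against mean UMIs per cell (horizontal axis, log scale) for 1829 genes (grey points) and 26 spike-ins (black triangles, as shares of spike-in UMIs); dashed lines mark 1.5-fold, and red, blue and yellow points are named genes higher, lower and within 1.5-fold. The spread narrows with abundance for genes and spike-ins, and HES1 and NEFM lie above the other genes of like abundance.

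The direction of the calls depended on the total chosen for scaling. With TMM factors, which align the bulk of the genes, 85 genes were higher and 62 lower. Counted per spike-in UMI, 226 were higher and 14 lower as the median fold itself moved up to 0.28 on the log2 scale. Relative to that median 59 genes were higher and 73 lower. HES1 had a fold of 1.91 relative to that median. After thinning 104 genes were higher, of which 45 were among the 63, and 122 were lower. More mRNA per cell and a different capture of mRNA and spike-ins cannot be told apart here.

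The genes named next are those past 1.5-fold in which the largest share of cell pairs followed the fold, 15 in each direction. Their folds and shares of pairs chose them, so both describe the choice. Over all 1829 genes the share of pairs higher in the ID2-high cell ran from 7.64% to 89.6%. H2AFY, which encodes the histone variant macroH2A1, led the higher genes. It ranged from 86.7 to 286 CPM in ID2-high cells, with a median of 198, and from 0 to 195 in ID2-low cells, with a median of 81.6. The means were 188 ± 57.6 and 89.1 ± 57.7 (SD, n = 12 each), 2.11-fold apart, and 89.6% of pairs were higher in the ID2-high cell. MPC2, a subunit of the mitochondrial pyruvate carrier, was higher in as many pairs. It had a median of 230 (119 to 351) in ID2-high and 150 (84.1 to 195) in ID2-low cells, with means of 246 ± 77.5 and 145 ± 38.7 (SD, n = 12 each), 1.70-fold apart. For MPC2 the ID2-low cells had the smaller SD in CPM together with the lower mean.

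MGST3, a microsomal glutathione transferase, had means of 196 ± 70.6 and 109 ± 55.5, 1.80-fold apart. SIGIRR, an inhibitory member of the interleukin-1 receptor family, had 151 ± 70.6 and 73.8 ± 61.9, 2.05-fold apart. The splicing regulator TRA2B averaged 214 ± 99.7 against 104 ± 79.5, also 2.05-fold apart (SD, n = 12 in each of these). These 3 genes were higher in 80.6% to 84.7% of pairs, and in each of them at least 1 ID2-low cell had no UMI. The actin-binding TAGLN2 was 1.61-fold higher, with 346 ± 140 against 215 ± 82.9, and PYGL, the liver glycogen phosphorylase, was 1.71-fold higher.

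The other higher genes besides HES1 differed by 1.65- to 1.99-fold and in 76.4% to 77.8% of pairs. KIAA0020, an RNA-binding protein of the Pumilio family, was 1.99-fold higher, but 1.66-fold without cell 27. INSIG1, which holds the sterol sensor complex in the endoplasmic reticulum, was 1.81-fold higher. DDX24, an RNA helicase, was 1.90-fold, the zinc transporter SLC39A4 1.65-fold, the Mediator subunit MED28 1.96-fold and the zinc finger protein ZNHIT1 1.92-fold higher. RP11-106A1.2, a transcript known by its clone name, was 1.82-fold higher. For MED28 the ratio of summed UMIs, 1.57 [1.08 to 2.32], came nearest to 1 at its lower bound.

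EIF3G, a subunit of the translation initiation factor eIF3, led the genes that were lower in ID2-high cells. It ranged from 105 to 302 CPM in ID2-high cells, with a median of 206, and from 230 to 553 in ID2-low cells, with a median of 330. The means were 211 ± 54.9 and 358 ± 103 (SD, n = 12 each), 1.70-fold apart, and EIF3G was lower in the ID2-high cell in 92.4% of pairs. The overlap of the sets was limited to the span from 230 to 302. MRPS7, a protein of the small mitochondrial ribosome subunit, averaged 125 ± 63.1 against 227 ± 55.1 (SD, n = 12 each), 1.81-fold lower and lower in 89.6% of pairs.

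CYB5R3, which reduces cytochrome b5, averaged 61.7 ± 38.5 against 134 ± 63.1, 2.17-fold lower. The middle cells, at 157 ± 69.02 (SD, n = 23), lay above both sets for this gene. C1D, a cofactor of the nuclear exosome, averaged 49.2 ± 35.2 against 108 ± 47.2, 2.20-fold lower. The endoplasmic reticulum co-chaperone DNAJB11 averaged 80.1 ± 29.8 against 159 ± 88.9, 1.98-fold lower (SD, n = 12 in each set). In all 3 the ID2-high cells had the smaller SD in CPM together with the lower mean. The pairs that followed the fold made up 84.0% to 86.1%.

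The remaining lower genes differed by 1.55- to 2.21-fold and in 79.2% to 83.3% of pairs. They were LYPLA1, a depalmitoylating thioesterase (1.72-fold), STARD7, a lipid transfer protein (1.72-fold), and the splicing-associated SCAF11 (1.70-fold). NOB1, the endonuclease that matures the small ribosomal subunit RNA, was 1.77-fold lower, OLA1, an Obg-like ATPase, 1.59-fold, and the chaperone BAG6 1.95-fold. C19orf10, a secreted factor, was 1.84-fold lower, the endoplasmic reticulum selenoprotein VIMP 2.21-fold, the ubiquitin-conjugating enzyme UBE2D2 1.65-fold and MTDH 1.55-fold. Without cell 10 OLA1 had a fold of 0.667 and without cell 27 MTDH one of 0.696, both within 1.5-fold. OLA1 in the middle cells averaged 141 ± 70.3 (SD, n = 23), below the 162 ± 74.9 of the ID2-high cells (SD, n = 12).

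**Figure D4:**
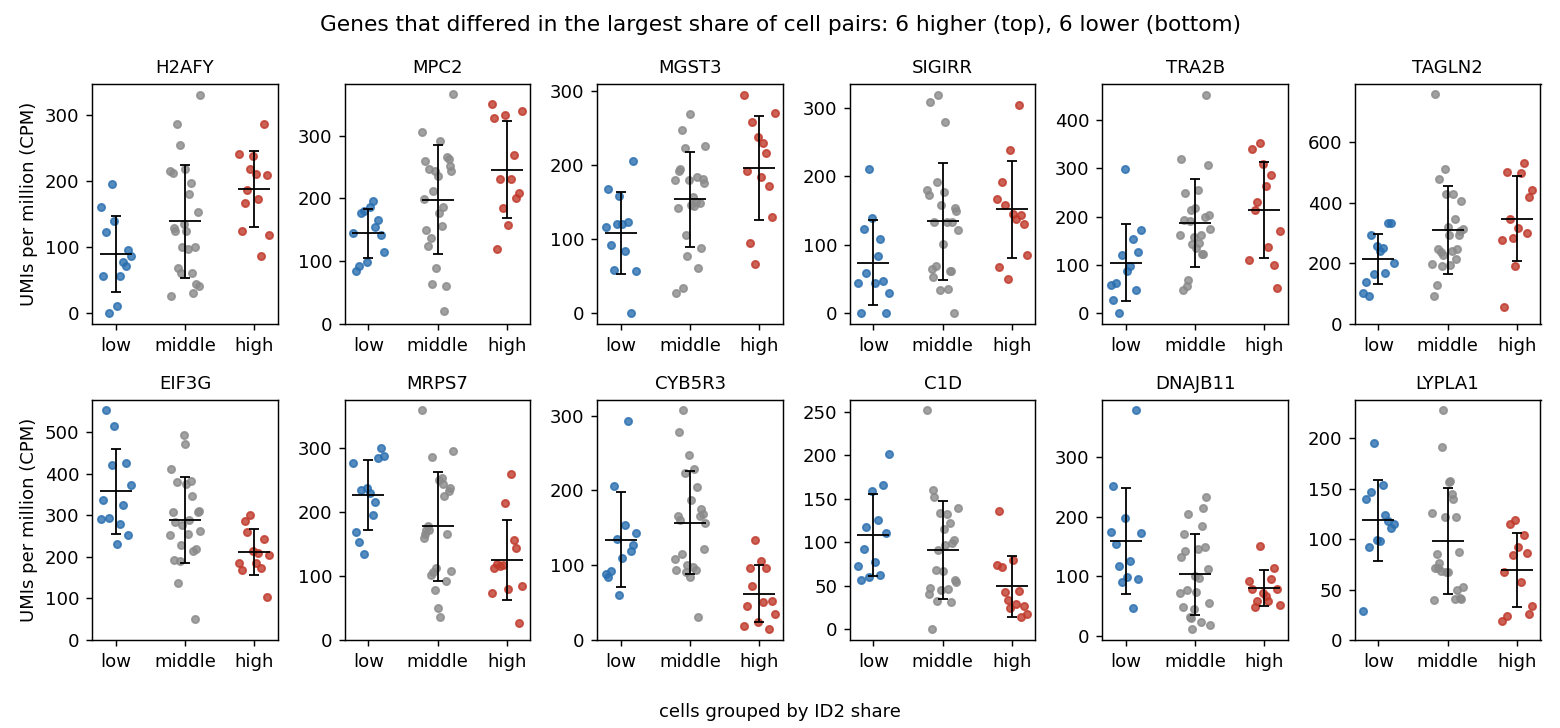
CPM (vertical axes, linear) in ID2-low (blue), middle (grey) and ID2-high (red) cells for the 6 higher (top row) and 6 lower genes (bottom row) with the largest share of pairs following the fold; points are cells, bars the mean and SD. EIF3G means were 211 in ID2-high and 358 in ID2-low cells, and every panel shows overlapping sets.

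The largest folds included H2AFY, TRA2B, VIMP, C1D and CYB5R3, already described, and 5 further genes. NEFM, the medium neurofilament chain, led them and was 4.66-fold higher in ID2-high cells. Its values ran from 0 to 943 with a median of 184 in ID2-high cells, and from 0 to 218 with a median of 29.7 in ID2-low cells, with 233 and 43 UMIs in all. The ID2-high range took in all of the ID2-low range, and NEFM was higher in 73.6% of pairs. Without cell 7, the cell with the highest NEFM, the fold was 3.71, and without cell 44 it was 6.03. Middle cells averaged 132 ± 230 (SD, n = 23), and the highest of them, cell 57, had 759 CPM.

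SAT1, which acetylates spermidine and spermine, followed with a 2.49-fold difference, 156 ± 110 against 62.6 ± 46.6 (SD, n = 12 each), and ALKBH2, a DNA repair dioxygenase, with 2.22-fold. Of the lower genes B9D1, a ciliary transition zone protein, differed most, by 2.59-fold, with 48.5 ± 36.03 against 126 ± 91.9 (SD, n = 12 each). MRPL54, of the large mitochondrial ribosome subunit, was 2.15-fold lower. All 4 had sets that overlapped widely, with 70.8% to 78.5% of pairs following the fold.

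The 23 middle cells did not enter the folds that chose the genes, and ID2 varied among them from 82.9 to 248 CPM. Spearman's rho with ID2 over these cells was above 0 for 42.5% of all 1829 genes. It was above 0 for 38.1% of the 63 higher genes and for 37.2% of the 94 lower genes. Of the 15 named higher genes 5 had a positive rho, and of the 15 named lower genes 8. The directions seen between the outer cells were not repeated by the sign of rho within the middle cells, whose ID2 range is narrow and whose counts share the depth of each cell.

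**Figure D5:**
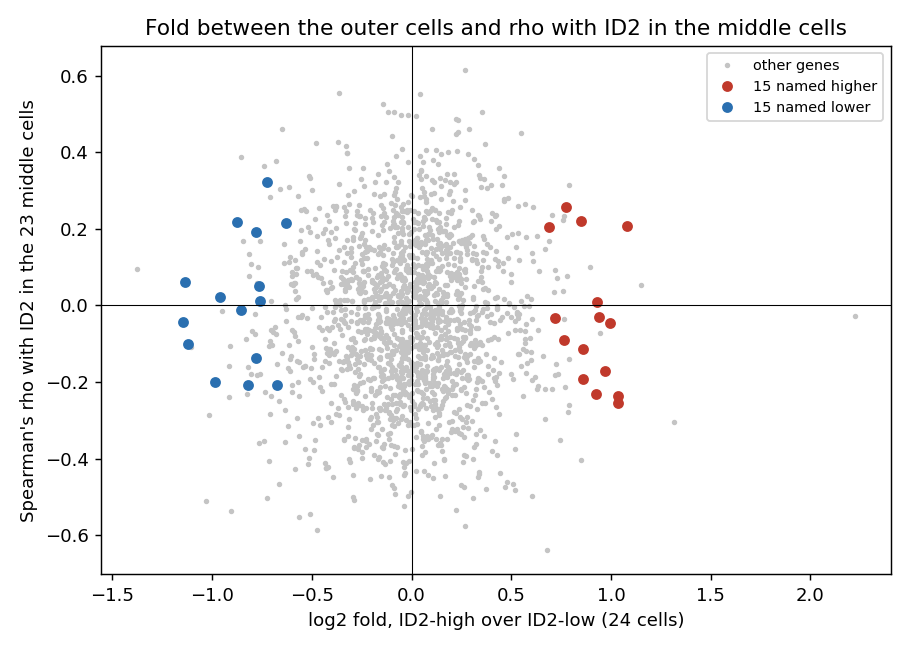
Spearman's rho of each gene with ID2 over the 23 middle cells (vertical axis) against the log2 fold between ID2-high and ID2-low cells (horizontal axis); grey points are genes, red and blue the 15 named higher and 15 named lower genes. Red and blue points fall on both sides of 0 on the vertical axis, with 5 and 8 of 15 above it.

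The lists of ligands, receptors, SMAD factors and antagonists of the BMP and TGF-beta pathways had no member above the abundance filter. Their summed shares of UMIs differed by 1.12-fold for ligands (0.0078% against 0.0070%), 0.882-fold for receptors, 0.857-fold for SMAD factors and 1.13-fold for feedback genes. E proteins and the RB family, the binding partners of ID proteins, differed by 1.13-fold in summed share, with 71 and 49 UMIs. In each of these 5 lists the ranges of the 2 sets overlapped widely.

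Of the HES and HEY genes and other Notch targets, 4 passed the filter and HES1 alone was past 1.5-fold, beside 3.44% higher over all genes. The median log2 fold of these 4 was 0.32, beside -0.01 over all genes, and 4 members are too few to set apart. Under the filter, HEYL went the other way, with 0 UMIs in ID2-high and 11 in ID2-low cells, a ratio of 0 [0 to 0.307]. HES6 had 36 and 22 UMIs, a ratio of 1.26 [0.721 to 2.25], and HEY2 19 and 13, a ratio of 1.12 [0.527 to 2.48]. NRARP, a Notch-induced feedback inhibitor, lay just under the fold at 1.49. With 1 cell left out its fold ran from 1.35 (without cell 62) to 1.72 (without cell 10). NRARP had a median of 311 (86.3 to 668) in ID2-high and 211 (72.8 to 553) in ID2-low cells. It was higher in 77.1% of pairs, its 305 and 141 UMIs gave a ratio of 1.66 [1.36 to 2.05], and middle cells averaged 229 ± 119 (SD, n = 23). HES4 and HEY1 differed by 0.907- and 1.05-fold, and both turned direction when 1 cell was left out, HES4 to 1.04 without cell 44 and HEY1 to 0.920 without cell 9. Notch ligands and receptors had no member above the filter and a summed share of 0.0223% in ID2-high and 0.0202% in ID2-low cells.

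In the 25 gene lists together, 246 members passed the filter, 6 of them at least 1.5-fold higher and 6 lower, beside 3.44% higher and 5.14% lower over all genes. Of 20 G1/S genes, PCNA, the sliding clamp of replication, was 1.55-fold higher and the clamp loader subunit RFC2 had a fold of 0.590. Of 25 G2/M genes the kinase AURKB was 1.72-fold higher, while UBE2S and CENPF had folds of 0.566 and 0.664. The median log2 fold of the lists was -0.17 for G1/S and 0.05 for G2/M genes, and their summed shares differed by 0.984- and 1.05-fold. The 5 genes went in both directions within 2 lists of cell cycle genes, and with so few members these counts are not set apart from the shares over all genes. Each of them was within 1.5-fold when 1 cell was left out: PCNA at 1.39 without cell 28, AURKB at 1.36 without cell 9, RFC2 at 0.694 without cell 56, UBE2S at 0.676 without cell 10 and CENPF at 0.742 without cell 87.

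No member was past 1.5-fold among 78 cytosolic ribosomal protein genes, 13 mitochondrially encoded mRNAs, 52 nuclear oxidative phosphorylation genes and 11 reference genes. Among all genes of high abundance such folds were rare too, with 0 of 185 at 50 or more UMIs per cell and 1.09% at 20 to 50. Ribosomal protein mRNAs made up 27.1% ± 1.96 of the UMIs of ID2-high and 27.02% ± 2.25 of those of ID2-low cells (SD, n = 12 each). Of 7 tested members of the cholesterol synthesis list 2 were higher and 0 lower, beside 3.44% higher and 5.14% lower over all genes. INSIG1, a regulator described above, was among them. At 6.38 UMIs per cell it lay in the band of 5 to 10, where 14.6% of genes were past the fold. The median log2 fold of the list was 0.10, and its summed share differed by 1.10-fold. In the integrated stress response list of 7 tested genes HERPUD1 was 1.55-fold higher and XBP1 had a fold of 0.632. AHSA1, an HSP90 co-chaperone, had a fold of 0.591 among 12 chaperones, and the glycolytic GPI 0.643 among 10 glycolysis genes. The calls of HERPUD1, XBP1, AHSA1 and GPI were also lost with 1 cell left out: HERPUD1 at 1.41 without cell 18, XBP1 at 0.750 without cell 73, AHSA1 at 0.681 without cell 2 and GPI at 0.693 without cell 87. MYC, with 1.28-fold, and the CDK inhibitor CDKN2A, with 1.22-fold, stayed under the fold, and no member of the WNT and p53 target lists passed the filter.

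Markers of other cell types were looked at for the same cells. Of 12 neuronal markers 6 had a row and 2 passed the filter, NEFM and UCHL1, the latter with a fold of 1.11. The summed share of the neuronal list was 0.0681% ± 0.0362 in ID2-high and 0.0414% ± 0.0189 in ID2-low cells (SD, n = 12 each), a 1.65-fold difference. It ranged from 0.0144% to 0.131% in ID2-high and from 0.0142% to 0.0807% in ID2-low cells. NEFM, already described, made up 233 of the 547 UMIs of this list in ID2-high and 43 of 290 in ID2-low cells. NEFL, the light neurofilament chain, had a fold of 0.880 and was higher in 51.7% of pairs. Its fold was 1.56 without the ID2-low cell 2, at 306 CPM, and 0.713 without the ID2-high cell 75. GAP43 had 1 UMI in all 47 cells. Adrenal markers had 0 and 2 UMIs in the sets, and blood and immune markers 1 and 3. Kidney epithelial markers had 94 and 118 UMIs, fibroblast markers 163 and 166, and pluripotency markers 27 and 24. Summed shares of these 3 lists, which allow for depth, differed by 0.673-, 0.828- and 0.906-fold, with overlapping ranges. The part of these markers in the differences was not tested.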

How the data were processed

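The authors deposited 1 table of whole-number UMI counts per gene for 47 cells, not normalized. Trimming with cutadapt 1.2.1, alignment software STAR 2.4.0a and the builds hg19 and GRCh37 are listed in the submitters' processing notes. The annotation, UMI collapse, use of strand and filter on cells are not given in the sources used here. A repeated header row (sum 1859) was left out. All 47 columns matched 1 label each and 0 were unmatched, though each name carries a word no label explains.

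Cells were ordered by ID2 UMIs over all endogenous UMIs (18651 gene rows), ties going to the lower cell number. Folds are ratios of mean CPM, each cell weighted equally. Ties count 0.5 in a pair. Genes with a mean of at least 5 UMIs per cell were compared. Named genes were ID1, ID3, ID4, HES1 and SOX4, the 15 higher and 15 lower genes past 1.5-fold with the largest share of pairs, the 5 largest folds each way, and list members past the fold. The largest folds and list members under the fold or the filter, such as NRARP, were added after values were seen. The sets, genes and 25 lists were chosen with earlier results of these data known. Alternatives were summed counts, TMM and spike-in scaling, thinning, other set sizes, filters and folds, an order by spike-ins, and leaving out cells. 1 list member past the fold is not reported here. No doublet caller was run. Scripts were tested on simulated counts.

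Promoters (6 of 6 symbols matched) come from RefSeq on GRCh38.p14, a later build than that of the counts. Software was python 3.11.15, numpy 2.4.6, pandas 2.3.3, scipy 1.17.1, matplotlib 3.10.9 and R 4.3.3 with edgeR 4.0.16, used for TMM factors only.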

Additional observations from a re-analysis of the deposited data

How the results depend on the processing

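The number of genes at least 1.5-fold higher (63) became 226 per spike-in UMI, 104 after thinning, 135 with 8 and 23 with 16 cells per set, 337 (of 3862) at a mean of at least 2 UMIs, 15 (of 952) at 10, 4994 (of 15825) without a filter, and 6 at 2-fold. The number of lower genes (94) became 62 with TMM factors, 14 per spike-in UMI, 381, 14 and 4360 under those 3 filters, and 7 at 2-fold. List members past the fold (12) were 24 per spike-in UMI and 20 with 8 cells. ID3 had a fold of 1.39 per spike-in UMI and 1.35 with 8 cells, HES1 1.41 with 16 cells, SOX4 1.34 per spike-in UMI and 0.858 with 16 cells. ID3 also turned to 0.992 with 16 cells and to 0.885 without cells 43 and 62. With 1 cell left out, higher genes ranged from 57 to 83, lower genes from 85 to 108, and the folds from 1.64 to 2.02 for ID1, 0.916 to 1.19 for ID3, 0.964 to 2.01 for ID4 (0.964 without cell 7, reversed), 1.68 to 2.26 for HES1 and 0.944 to 1.18 for SOX4. Thinning kept 45 of the 63 higher genes, 16 cells kept 17. Ordering by ID2 per spike-in UMI shared 10 ID2-high and 12 ID2-low cells and gave 62 and 86 genes; leaving out cells 43 and 62, chosen after seeing the data, gave 63 and 120. The cause of these changes was not tested, apart from the filters, which change how many genes are compared. Depth limits the scarce genes: ID4 and the pathway lists below the filter could not be placed. No paired analysis was possible because the labels name no groups.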

Other observations

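Immediate-early genes, which serum and growth factors switch on within a short time, lay mostly below the abundance filter. Their list took 0.0872% ± 0.0383 of the UMIs of ID2-high cells and 0.0630% ± 0.0324 of those of ID2-low cells (SD, n = 12 each), a 1.38-fold difference with overlapping sets. The members named here were chosen after their values were seen. IER5 had 32 UMIs in ID2-high and 3 in ID2-low cells, a ratio of 8.21 [2.57 to 41.9], and was higher in 94.1% of pairs, ties counted as 0.5. Its median was 30.0 CPM in ID2-high (0 to 79.2) and 0 in ID2-low cells (0 to 14.6), and its rho with ID2 in the middle cells was 0.37. SRF, the factor that binds serum response elements, had 66 and 26 UMIs, a ratio of 1.95 [1.22 to 3.21], and was higher in 79.9% of pairs, with a rho of -0.09. For SRF the middle cells averaged 78.5 ± 101 CPM (SD, n = 23), above the ID2-high mean of 70.5, and the highest of them, cell 52, had 459 CPM. KLF6, a zinc finger factor, had 24 and 5 UMIs, a ratio of 3.69 [1.38 to 12.4], but was higher in only 61.1% of pairs. EGR1 had 37 and 20 UMIs, a ratio of 1.42 [0.805 to 2.59]. Its equal-weight fold of 1.86 became 5.42 without cell 74 and 1.51 without cell 80. FOS had 69 and 34 UMIs, a ratio of 1.56 [1.02 to 2.43], while its equal-weight fold was 1.29, or 0.969 without cell 80. Its medians ran the other way, 32.9 CPM in ID2-high and 50.7 in ID2-low cells, and 57.6% of pairs were higher. Members that were not higher include JUNB, with 12 and 11 UMIs and a fold of 0.723, IER3, with 11 and 11 and 0.772, and ATF3, with 15 and 13 and 0.974. Several other members had too few UMIs to place, such as ZFP36 with 6 and 1, CYR61 with 7 and 0, NR4A1 with 4 and 4 and KLF4 with 7 and 8. Without a filter 4994 of 15825 genes were at least 1.5-fold higher and 4360 lower, so large folds were common among scarce transcripts. The 2 members above the filter, JUN and BTG1, had folds of 0.941 and 1.17.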
